A study of Mus musculus with 18 samples.

Results

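The genes described here encode the constitutive subunits of the proteasome, the protease that degrades proteins tagged with ubiquitin. They were taken as every gene with a probe set annotated to it alone whose symbol is Psma, Psmb, Psmc or Psmd followed by a number, leaving out Psmb8, Psmb9 and Psmb10. This gave 35 genes of the 12394 on the arrays. Where a gene had several probe sets, the one with the highest mean over the arrays was read, and 17 of the 35 genes had more than 1. Psma8, a paralogue of Psma7 known from testis, lay below the median of the genes on every array and was not tested. The other 34 genes lay above that median on all 18 arrays and were tested in every comparison.

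The proteasome is built around a core barrel of stacked rings, made of alpha subunits (Psma) and beta subunits (Psmb). Psmb6, Psmb7 and Psmb5 carry the protease active sites of the constitutive core, with caspase-like, trypsin-like and chymotrypsin-like activity. In immune cells and under interferon they can be replaced by Psmb9, Psmb10 and Psmb8, which gives the immunoproteasome, known for producing peptides presented by MHC class I. The cap on the barrel has a ring of ATPases (Psmc) that unfold the substrate, scaffold and ubiquitin-binding subunits at its base, and a lid that removes ubiquitin (Psmd). Psmd5, Psmd9 and Psmd10 are chaperones that help to build the base and are not part of the finished particle.

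The cells were mouse dendritic cells grown for 7 to 10 days from the bone marrow of C57BL/6 animals aged 6 to 8 weeks, in medium with supernatant of B16 tumour cells that secrete GM-CSF, and were used when over 90% carried CD11c. The 3 conditions were wild type cells, wild type cells with the calcium chelator EGTA at 2 mM, and cells of Cd14-/- C57BL/6 mice, which lack a co-receptor for the bacterial lipopolysaccharide LPS. In each condition 1 array was made from unstimulated cells harvested 24 h after plating and 1 each after 2, 4, 6, 12 and 24 h of LPS. The labels give no time since plating for the LPS arrays. Changes from the unstimulated arrays, above all at 2 to 12 h, may mix time since plating with LPS. The 2 cannot be told apart. LPS was given at 1 µg/ml in both wild type conditions, while no dose is stated for the Cd14-deficient cells, and only the title of the unstimulated EGTA array names EGTA. The series set out to separate effects of calcium flux from other effects of losing CD14.

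No time point was repeated within a condition, so the 5 LPS times served as replicates for a comparison of conditions, and the 3 conditions served as replicates for a comparison of times. The labels do not say that the arrays came from separate cultures or animals, so the p-values reflect how far these arrays scatter, and that scatter may be technical. Levels are given as quantile-normalised log2(intensity + 16), differences are on that log2 scale with their standard error (SE) after the sign ±, and the fold size understates the change of dim genes. Adjusted p-values come from limma across all genes tested with Benjamini-Hochberg adjustment, and a gene is called at an adjusted p under 0.05. In such bulk RNA, fewer cells of a type and less RNA per cell cannot be told apart.

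Cd14 itself read 12.49 to 13.28 on the 12 wild type arrays and 4.28 to 5.84 on the 6 Cd14-deficient arrays, so each array matched its genotype label. Itgax, which encodes CD11c, read 11.22 to 12.40 over the 18 arrays, and Cd74, the invariant chain of MHC class II, read 13.39 to 13.85. RNA integrity numbers were 8.8 and 8.7 for the EGTA arrays at 12 and 24 h and 9.3 to 10 for the others. The unstimulated EGTA array stood apart, with the lowest median correlation to the other arrays at 0.933 and only 3311 probe sets below an intensity of 16. Trimmed mean intensities ran from 330.5 to 472.3.

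**Figure D1:**
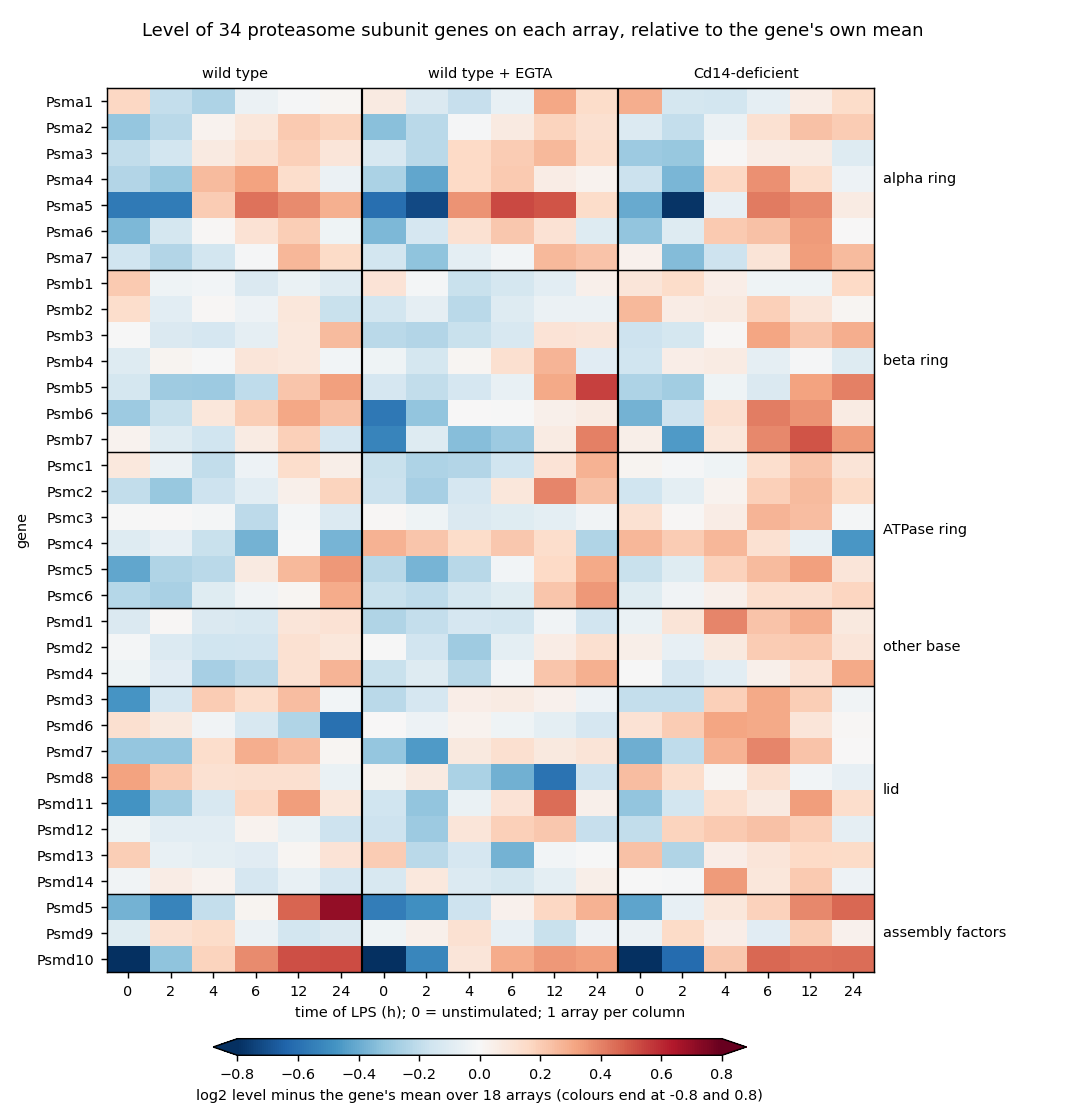
Heat map of the 34 tested genes (rows, grouped by place in the particle) on the 18 arrays (columns, by condition and hours of LPS). Colour gives the log2 level minus the gene's own mean over the 18 arrays. Psma2, Psma5 and Psmd10 are blue without LPS and at 2 h and red from 6 h on in all 3 conditions, while Psmb1, Psmd8 and Psmd9 do not share that course.

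On the quantile-normalised scale, more proteasome genes were higher at the late times of LPS than at 2 h. At 24 h, 18 of the 34 genes were higher than in unstimulated cells and 3 were lower, over the 3 conditions. Among all 7056 genes tested, 26.4% were higher and 25.7% lower at that time. The median change was 0.26 for the proteasome genes and 0.01 for all genes. At 2 h, 3 genes were higher and 3 lower, against 16.4% and 25% of all genes, with a median of -0.02 against -0.09.

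The count grew in between. At 4 h, 11 were higher and 4 lower (25.6% and 35.2% of all genes), and at 6 h, 14 were higher and 4 lower (26.1% and 33.9%). At 12 h, 20 were higher and 2 lower (27.1% and 29.5%), with a median of 0.28 against -0.01 for all genes. Averaged over the 5 times, 16 were higher and 4 lower (27.3% and 34.7%), with a median of 0.16 against -0.05. These comparisons share the 3 unstimulated arrays and are not independent of each other. Those at 2, 4, 6 and 12 h may also hold a part of time since plating, which was not tested. Without the EGTA series, whose unstimulated array stood apart, 16 genes were higher and 4 lower at 24 h.

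How many genes were called depended on how the arrays were brought to 1 scale. With the values as deposited, the median of all genes at 24 h was -0.28 and that of the proteasome genes 0.02, with 5 higher and 5 lower. With each array centred on its own median, those medians were 0.09 and 0.39, and 19 genes were higher and 1 lower. Averaged over the 5 times, the split was 6 higher and 5 lower as deposited and 24 higher and 0 lower after centring. At 2 h it was 1 and 1 as deposited against 16 and 0 after centring, at 4 h 4 and 5 against 22 and 0, at 6 h 7 and 4 against 23 and 0, and at 12 h 11 and 1 against 25 and 0. Only Psma5, Psmb5, Psmb6, Psmd5 and Psmd10 were higher and only Psmc4 was lower at 24 h under all 3 scalings. The 24 h counts by place in the particle that follow are on the quantile-normalised scale. They stand beside 26.4% higher and 25.7% lower among all genes.

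**Figure D2:**
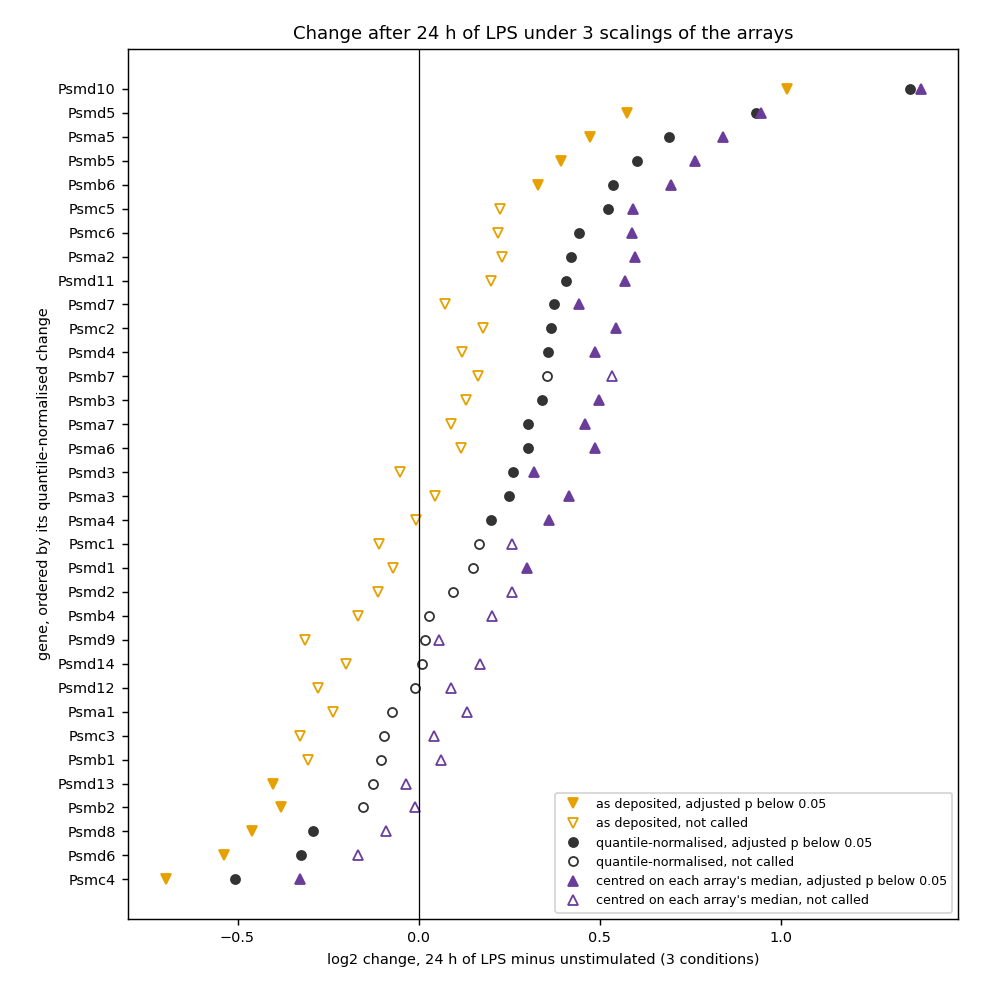
Change of each of the 34 genes after 24 h of LPS (log2, over the 3 conditions) with the values as deposited (triangles down), quantile-normalised (circles) and centred on each array's median (triangles up). Filled symbols have an adjusted p below 0.05. The order of the genes is alike, while the whole set lies lower as deposited; 5 genes at the top and Psmc4 at the bottom are filled in all 3.

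Among the assembly chaperones of the base, 2 of 3 rose. Psmd10 (Entrez gene 53380), also called gankyrin, changed most of all the proteasome genes. In wild type cells it read 9.04 without LPS and 9.53, 10.03, 10.23, 10.37 and 10.38 at 2, 4, 6, 12 and 24 h. With EGTA the levels were 8.94, then 9.33, 9.95, 10.15, 10.20 and 10.18. In Cd14-deficient cells they were 8.81, then 9.24, 10.07, 10.31, 10.29 and 10.30. Every LPS array lay above all 3 unstimulated arrays, and the level changed little after 6 h. The change was 0.44 ± 0.08 at 2 h (adjusted p = 0.00052) and 1.36 ± 0.08 at 24 h (adjusted p = 2.4e-09), a 2.56-fold difference. It was called at 24 h under each of the 9 other settings, with changes from 1.02 to 1.41.

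Psmd5 (Entrez gene 66998) rose more slowly. Its wild type levels were 8.64 without LPS and 8.49, 8.83, 9.04, 9.48 and 9.72 at the 5 times. With EGTA they were 8.47, then 8.53, 8.85, 9.06, 9.18 and 9.30, and in Cd14-deficient cells 8.60, then 8.95, 9.11, 9.20, 9.41 and 9.48. From 4 h on all arrays lay above the unstimulated ones, and each condition was highest at 24 h. The change at 24 h was 0.93 ± 0.11 (adjusted p = 6.4e-06). Psmd9, the remaining chaperone, ranged only from 7.98 to 8.36, and its 24 h change of 0.02 ± 0.10 had an adjusted p of 0.89.

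In the alpha ring, 6 of the 7 tested genes were higher at 24 h and 0 lower, with a median of 0.30. With the values as deposited, only Psma5 of these 6 stayed called. Psma5 (Entrez gene 26442) changed most. It read 11.37 without LPS and 11.38, 12.14, 12.37, 12.31 and 12.22 in wild type cells. The EGTA levels were 11.33, then 11.21, 12.30, 12.46, 12.43 and 12.08, and the Cd14-deficient levels 11.53, then 11.15, 11.87, 12.35, 12.31 and 12.00. At 2 h the arrays overlapped the unstimulated ones, and from 4 h on all lay above them. The change was 0.98 ± 0.09 at 6 h (adjusted p = 3.1e-07) and 0.69 ± 0.09 at 24 h (adjusted p = 1.6e-05).

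The other alpha ring genes moved less. At 24 h Psma2 was higher by 0.42, Psma6 and Psma7 by 0.30, Psma3 by 0.25 and Psma4 by 0.20. For Psma4 the sign turned with the values as deposited, to -0.01. Psma4 and Psma5 were highest at 6 h and lower again at 24 h, while Psma7 was highest at 12 h. Psma1 went the other way early: it was lower by 0.33 ± 0.07 at 2 h (adjusted p = 0.0027) and by 0.37 ± 0.07 at 4 h (adjusted p = 0.00052). After centring each array on its median those changes turned to 0.09 and 0.03. Both calls were lost with the mean of the gene's probe sets, and the 2 h call also as deposited. At 24 h the difference of Psma1 was -0.07 ± 0.07 (adjusted p = 0.42). Averaged over the 5 times Psma1 was lower by 0.21, and after centring each array on its median that sign turned, to 0.12.

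In the beta ring, 3 of 7 genes were higher at 24 h and 0 lower, with a median of 0.34, and the catalytic genes followed 3 different courses. Psmb5 (Entrez gene 19173), the chymotrypsin-like subunit, read 11.17 without LPS and 11.03, 11.03, 11.12, 11.54 and 11.65 in wild type cells. With EGTA it read 11.18, then 11.12, 11.18, 11.26, 11.62 and 11.86, and in Cd14-deficient cells 11.07, then 11.04, 11.28, 11.20, 11.64 and 11.72. The 6 arrays at 12 and 24 h lay above all 12 others. The change at 24 h was 0.60 ± 0.07 (adjusted p = 2.2e-06), a 1.52-fold difference.

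Psmb6 (Entrez gene 19175), the caspase-like subunit, rose earlier. In wild type cells it read 11.55 without LPS and 11.67, 11.93, 12.04, 12.16 and 12.08. With EGTA it read 11.27, then 11.53, 11.84, 11.84, 11.88 and 11.91, and in Cd14-deficient cells 11.47, then 11.68, 11.97, 12.25, 12.20 and 11.91. All arrays from 4 h on lay above the unstimulated ones. The change was 0.19 ± 0.07 at 2 h (adjusted p = 0.043), 0.65 ± 0.07 at 12 h (adjusted p = 2.1e-06) and 0.54 ± 0.07 at 24 h (adjusted p = 1.8e-05). The 2 h call was lost in 8 of the 18 fits that left out 1 array (adjusted p up to 0.13). It was also lost as deposited, without the filter on dim genes, without the intensity trend and without the EGTA series.

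Psmb7 (Entrez gene 19177), the trypsin-like subunit, showed no common course. It read 12.13 without LPS and 12.00, 11.94, 12.16, 12.29 and 11.96 in wild type cells. With EGTA it read 11.57, then 12.00, 11.75, 11.80, 12.16 and 12.50, and in Cd14-deficient cells 12.14, then 11.64, 12.19, 12.48, 12.60 and 12.44. The LPS arrays overlapped the unstimulated ones at 2, 4, 6 and 24 h. At 12 h all 3 lay above them, with a difference of 0.41 ± 0.18 (adjusted p = 0.061), and the 24 h difference of 0.35 ± 0.18 had an adjusted p of 0.10. Of the structural beta subunits, Psmb3 was higher at 24 h by 0.34 ± 0.08 (adjusted p = 0.003), and Psmb1, Psmb2 and Psmb4 were not called at that time. The other probe set of Psmb3 overlapped between these times. It read 10.45, 10.37 and 10.56 without LPS and 10.45, 10.54 and 10.64 at 24 h, in wild type, EGTA and Cd14-deficient cells. Averaged over the 5 times Psmb1 was lower by 0.16, which turned to 0.13 after centring each array on its median.

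The immunoproteasome subunits that replace these 3 also rose, measured on their own probe sets in the same fit. At 24 h Psmb9, which replaces Psmb6, was higher by 1.25 ± 0.12 (adjusted p = 4.2e-07). Psmb10, which replaces Psmb7, was higher by 0.98 ± 0.08 (adjusted p = 1.6e-07), and Psmb8, which replaces Psmb5, by 0.93 ± 0.06 (adjusted p = 8.7e-09). The difference between a constitutive subunit and its replacement was not tested.

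**Figure D3:**
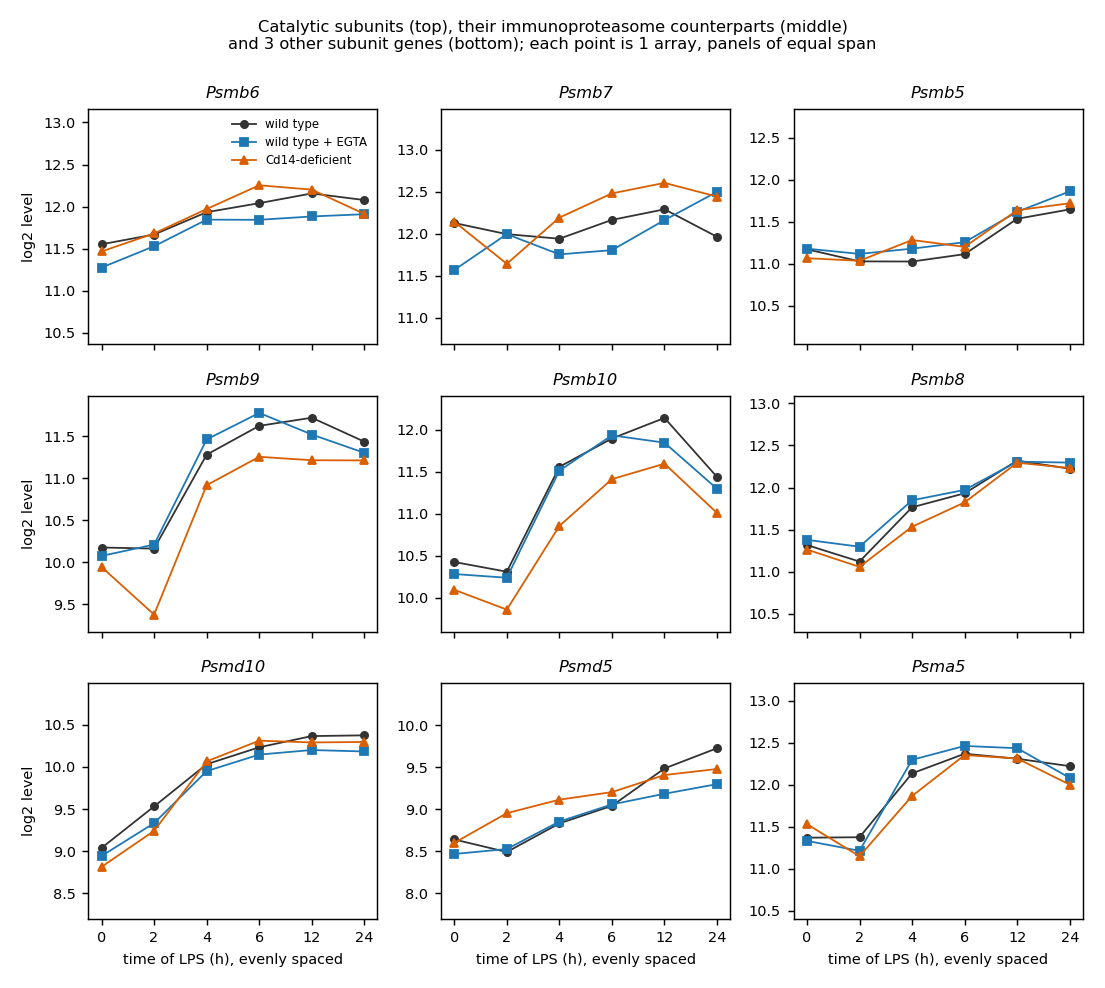
Log2 level of 9 genes on each array against hours of LPS, for wild type cells (circles), wild type cells with EGTA (squares) and Cd14-deficient cells (triangles). The top row shows the constitutive catalytic subunits, the middle row the immunoproteasome subunit that replaces the one above it, and the bottom row Psmd10, Psmd5 and Psma5, with panels of equal span. The 3 lines nearly coincide in Psmb5 and Psmd10 and cross in Psmb7, while the Cd14-deficient line lies lowest in Psmb9 and Psmb10.

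In the ATPase ring, 3 of 6 genes were higher at 24 h and 1 lower, with a median of 0.27. Psmc5 was higher by 0.52 ± 0.11 (adjusted p = 0.00086), Psmc6 by 0.44 ± 0.08 (adjusted p = 0.00033) and Psmc2 by 0.37 ± 0.08 (adjusted p = 0.0009). Psmc4 (Entrez gene 23996) was lower by 0.51 ± 0.10 (adjusted p = 0.00079). Its probe set read 11.02, 11.41 and 11.39 without LPS and 10.76, 10.88 and 10.66 at 24 h, in wild type, EGTA and Cd14-deficient cells. These groups did not overlap, but the wild type array at 6 h read 10.75.

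The other probe set of Psmc4 went the opposite way. It read 10.12, 9.96 and 10.22 without LPS and 10.63, 10.49 and 10.55 at 24 h in the same order, with no overlap. Its change was 0.46 ± 0.07 (adjusted p = 7.9e-05, among 11730 probe sets tested). The direction of Psmc4 after LPS depended on which probe set was read. Of the 13 genes with another probe set that passed the filter, 11 had the same sign on all of them at 24 h, and Psmb1 and Psmc4 did not.

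Among the base scaffold and ubiquitin receptor genes, only Psmd4, a ubiquitin receptor, was called at 24 h, higher by 0.36 ± 0.08 (adjusted p = 0.0012). Psmd1 and Psmd2 differed by 0.15 ± 0.09 and 0.10 ± 0.08 (adjusted p = 0.17 and 0.32). In the lid, 3 of 8 genes were higher at 24 h and 2 lower, against 26.4% and 25.7% of all genes. Psmd11 was higher by 0.41 ± 0.08, Psmd7 by 0.37 ± 0.08 and Psmd3 by 0.26 ± 0.09 (adjusted p = 0.00054, 0.0015 and 0.026). The call of Psmd3 was lost in 3 of the 18 fits that left out 1 array, with 0.16 (adjusted p = 0.17) without the unstimulated wild type array. The sign turned for Psmd3 with the values as deposited, to -0.05, and for Psmd7 with the mean of its probe sets, to -0.16. That mean takes in dim probe sets of Psmd7, with mean levels of 5.40 and 5.12 against 9.72 for the one read. Psmd6 was lower by 0.33 ± 0.10 and Psmd8 by 0.29 ± 0.10 (adjusted p = 0.014 and 0.02). The change of Psmd6 was -0.72 in wild type cells, -0.14 with EGTA and -0.11 in Cd14-deficient cells, and without the wild type array at 24 h it was -0.19 (adjusted p = 0.11). Its call was also lost without the unstimulated wild type array, at -0.22 (adjusted p = 0.097). The call of Psmd8 was lost in 3 of 18 fits that left out 1 array (adjusted p up to 0.099). Psmd14, the deubiquitinase of the lid, differed by 0.01 ± 0.09 (adjusted p = 0.94).

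Psmd13, another lid subunit, was lower at 2 h. It read 9.53, 9.54 and 9.57 on the unstimulated arrays of wild type, EGTA and Cd14-deficient cells and 9.27, 9.12 and 9.09 at 2 h, a change of -0.38 ± 0.09 (adjusted p = 0.0037). After centring each array on its median the 2 h change was -0.16 and was not called. At 24 h Psmd13 read 9.45, 9.33 and 9.48, a difference of -0.13 ± 0.09 (adjusted p = 0.26). On this probe set all 15 LPS arrays lay below the 3 unstimulated ones, those at 24 h by the least on average over the conditions. The other probe set of Psmd13 read 8.88, 8.82 and 8.71 without LPS and 8.68, 8.56 and 8.57 at 2 h, in the same order. At 24 h it read 8.81, 8.66 and 8.80, which overlapped the unstimulated arrays, and the Cd14-deficient array at 6 h read 8.98.

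The DNA before the start sites of the 5 genes that were higher at 24 h under all 3 scalings is shown here, since their calls at that time did not depend on the scaling. Their courses before 24 h differed. Each line gives the 250 bases before the annotated start in RefSeq's GRCm38.p6 table, 5′ to 3′ on the gene's strand, with CCGGAA, the core letters bound by ETS factors, in capitals on either strand. The windows lie at chrX:140956712-140956961 (minus strand), chr3:108256676-108256925 (plus), chr2:34870963-34871212 (minus), chr14:54617996-54618245 (minus) and chr11:70525107-70525356 (plus).

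Psmd10: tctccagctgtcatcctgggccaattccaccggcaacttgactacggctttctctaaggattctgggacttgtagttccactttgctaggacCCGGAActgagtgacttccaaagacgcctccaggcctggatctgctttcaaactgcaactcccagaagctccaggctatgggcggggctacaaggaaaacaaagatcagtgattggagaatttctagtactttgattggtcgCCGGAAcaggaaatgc
Psma5: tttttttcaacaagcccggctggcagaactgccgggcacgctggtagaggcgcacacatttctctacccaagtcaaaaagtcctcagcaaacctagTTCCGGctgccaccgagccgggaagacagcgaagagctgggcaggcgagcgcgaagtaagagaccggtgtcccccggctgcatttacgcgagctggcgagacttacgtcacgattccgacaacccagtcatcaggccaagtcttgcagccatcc
Psmd5: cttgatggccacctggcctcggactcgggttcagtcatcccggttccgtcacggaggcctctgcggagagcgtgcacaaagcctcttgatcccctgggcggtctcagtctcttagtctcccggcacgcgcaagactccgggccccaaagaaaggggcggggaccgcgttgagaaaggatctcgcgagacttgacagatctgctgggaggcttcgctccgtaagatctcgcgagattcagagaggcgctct
Psmb5: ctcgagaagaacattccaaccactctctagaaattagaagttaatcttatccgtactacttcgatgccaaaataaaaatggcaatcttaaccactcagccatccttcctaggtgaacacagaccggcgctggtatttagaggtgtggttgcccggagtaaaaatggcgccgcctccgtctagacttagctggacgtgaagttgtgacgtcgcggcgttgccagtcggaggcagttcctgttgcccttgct
Psmb6: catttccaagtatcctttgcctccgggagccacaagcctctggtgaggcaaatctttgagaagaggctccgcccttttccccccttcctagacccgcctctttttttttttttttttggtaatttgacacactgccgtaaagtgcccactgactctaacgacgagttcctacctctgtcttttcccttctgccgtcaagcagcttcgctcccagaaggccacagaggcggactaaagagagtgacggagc

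Psmd10 held CCGGAA at 2 places, the first 158 bases before the start, Psma5 held it at 1, and Psmd5, Psmb5 and Psmb6 did not hold it. Promoters were matched for 28 of the 35 genes, and the motif lay in 12 of them, 42.9%. It lay in 12.3% of all 27025 promoters in the table and in 24.4% of the 5812 that belong to tested genes. Of the 17 Psmc and Psmd promoters 11 held it, and of the 11 Psma and Psmb promoters 1 did. CCAAT lay in 11 of the 28, TGANNNNGC (an antioxidant response element) in 10, the NF-kB motif (GGGA, any 4 bases, CC) in 7 and an interferon-stimulated response element (GAAA, any 2 bases, GAAA) in 3. Those motifs lay in 36.0%, 36.8%, 21.5% and 3.05% of the promoters of tested genes. Both strands were searched, matches of different motifs may overlap, and a match is a description of the letters only.

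Within the LPS arrays, the late times (12 and 24 h) were set against the early ones (2, 4 and 6 h). Of the 34 genes 19 were higher late and 2 lower, against 33% and 24% of all 6929 genes tested. The median was 0.17 against 0.05. With the values as deposited the split was 16 higher and 3 lower, and after centring each array on its median it was 7 higher and 8 lower. Psma7, Psmb5, Psmc2, Psmc5, Psmd4, Psmd5 and Psmd10 were higher late under all 3 scalings, and Psmc4 and Psmd6 lower. For Psmc4 the other probe set was higher late, by 0.26 ± 0.05 (adjusted p = 0.00036).

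Psmb5 had the smallest p of these, with 0.53 ± 0.04 (adjusted p = 4e-07). Psma7 (Entrez gene 26444), an alpha ring subunit, followed with 0.39 ± 0.04 (adjusted p = 5.1e-06). Its wild type levels were 11.06 without LPS and 10.98, 11.07, 11.21, 11.48 and 11.37 at the 5 times. With EGTA they were 11.07, then 10.89, 11.14, 11.20, 11.48 and 11.45, and in Cd14-deficient cells 11.25, then 10.87, 11.05, 11.32, 11.55 and 11.47. The 6 late arrays lay just above the 9 early ones. Psmb7 was higher late by 0.33 ± 0.11 (adjusted p = 0.022). That call was lost after centring each array on its median and without the EGTA arrays at 12 and 24 h. It was also lost in 2 of the 15 fits that left out 1 array (adjusted p up to 0.076).

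By the mean over the conditions, 16 of the 34 genes peaked at 12 h among the LPS times and 8 at 24 h. The times of 6, 4 and 2 h held the peak of 5, 3 and 2 genes. The mean of the 34 centred levels was lowest at 2 h, close to its level without LPS, and highest at 12 h in each condition. At 12 h it was 0.13 in wild type cells, 0.11 with EGTA and 0.21 in Cd14-deficient cells. At 2 h it was -0.14, -0.20 and -0.12 in the same order, and without LPS -0.14, -0.19 and -0.10. Over the 18 arrays, which share the time course, the correlation of a gene with the mean of the other proteasome genes had a median of 0.68, against 0.07 for all genes with the mean of the proteasome genes. It was above 0.8 for 10 genes and below 0 for 5, namely Psmb1, Psmc4, Psmd6, Psmd8 and Psmd9. The genes outside the set most like that mean were Atp6v0b, Wdr1, Plpp1, Dnajb1 and Mfsd1, with Pearson correlations of 0.93, 0.93, 0.92, 0.92 and 0.92 over the same arrays.

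The next comparison asked whether the loss of CD14 altered these levels under LPS. In Cd14-deficient cells 4 of the 34 genes were higher than in wild type cells over the 5 LPS times and 1 was lower, against 17.1% and 12.6% of all genes. Both shares lay below the background. The median was 0.10 against 0.04 for all genes, and 28 of the 34 differences were above 0. With the values as deposited 0 genes were higher and 3 lower, with medians of -0.05 and -0.07 for all genes. After centring each array, 1 was higher and 2 lower. By place in the particle the median was 0.01 in the alpha ring, 0.12 in the beta ring, 0.14 in the ATPase ring, 0.15 in the rest of the base, 0.07 in the lid and 0.08 for the assembly chaperones.

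Psmd6 (Entrez gene 66413), a lid subunit, had the smallest p. In wild type cells it read 11.02 without LPS and 10.97, 10.86, 10.77, 10.65 and 10.30 at 2, 4, 6, 12 and 24 h. With EGTA it read 10.90, then 10.85, 10.92, 10.86, 10.81 and 10.75. In Cd14-deficient cells it read 11.01, then 11.09, 11.21, 11.19, 10.99 and 10.90. The wild type level was lower at each later time, and the Cd14-deficient level lay above it at 5 of 5 LPS times, with an overlap between 10.90 and 10.97 when times are pooled. The difference was 0.37 ± 0.07 (adjusted p = 0.0022), a 1.29-fold difference.

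The other probe set of Psmd6 gave the opposite sign. It read 11.15, 11.19, 11.00, 11.05, 10.76 and 10.44 in wild type cells from 0 to 24 h. In Cd14-deficient cells it read 10.83, 10.85, 10.89, 10.77, 10.56 and 10.40. It lay lower in the Cd14-deficient cells at every time, with a difference of -0.19 ± 0.07 (adjusted p = 0.054 among 11492 probe sets). Both probe sets fell to 24 h of LPS over the 3 conditions, the other one by 0.54 ± 0.09 (adjusted p = 0.00011). No called condition difference of Psmd6 held on both of its probe sets.

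**Figure D4:**
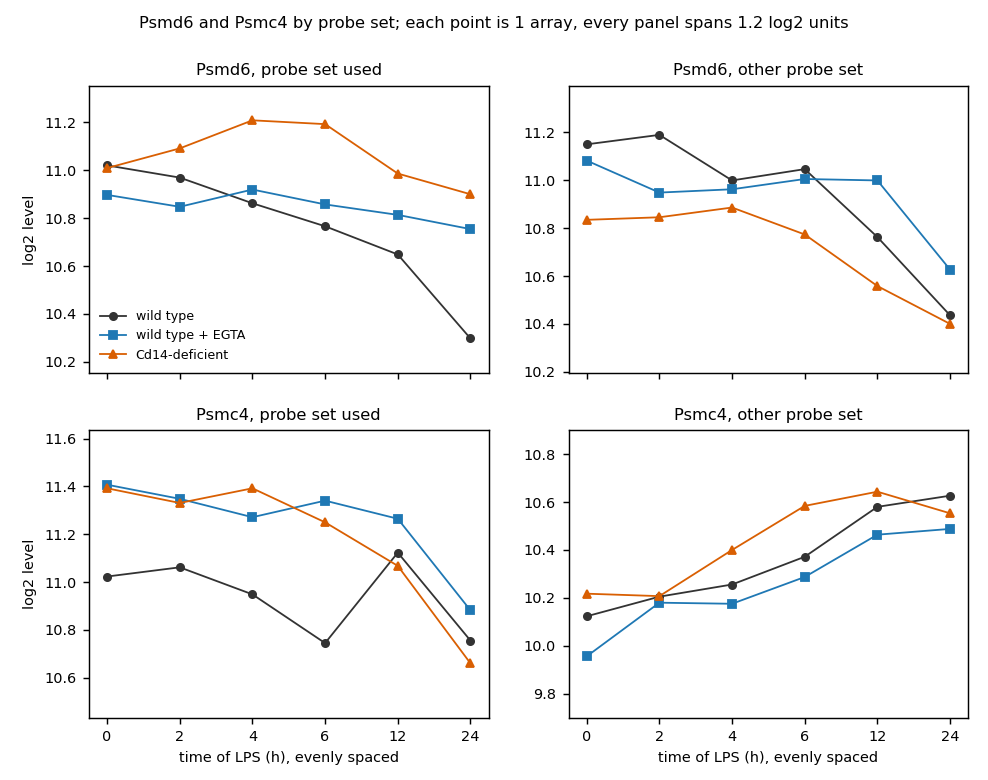
Log2 level on each array against hours of LPS for both tested probe sets of Psmd6 (top) and of Psmc4 (bottom), with the one read for the gene on the left, with panels of equal span. For Psmd6 the Cd14-deficient line (triangles) is highest on the left at every LPS time and lowest on the right throughout, and for Psmc4 the lines fall to 24 h on the left and rise on the right.

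Psmd1 (Entrez gene 70247), a scaffold of the base, was higher in Cd14-deficient cells by 0.22 ± 0.07 (adjusted p = 0.027). Its wild type levels were 10.61 without LPS and 10.74, 10.61, 10.60, 10.83 and 10.84. The EGTA levels were 10.49, then 10.54, 10.59, 10.58, 10.70 and 10.57. The Cd14-deficient levels were 10.67, then 10.83, 11.12, 10.96, 11.02 and 10.80. They lay above wild type at 4 of 5 LPS times, with overlapping ranges, and the largest gap was 0.51 at 4 h.

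Psmd12 (Entrez gene 66997), a lid subunit, was higher by 0.22 ± 0.07 (adjusted p = 0.035). In wild type cells it read 10.07 without LPS and 10.02, 10.02, 10.14, 10.06 and 9.95. With EGTA it read 9.94, then 9.82, 10.20, 10.30, 10.32 and 9.92. In Cd14-deficient cells it read 9.92, then 10.29, 10.32, 10.35, 10.30 and 10.04. It lay above wild type at 5 of 5 LPS times and below it without LPS.

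Psmc2, an ATPase, was higher by 0.17 ± 0.06 (adjusted p = 0.044), above wild type at 4 of 5 times. Psma3, an alpha ring subunit, was lower by 0.12 ± 0.04 (adjusted p = 0.036), below wild type at 5 of 5 times, and was lower under all 3 scalings. The call of Psmd6 held in all 20 fits that left out an array or a time. That of Psma3 and of Psmc2 was lost in 13 of those fits, of Psmd12 in 10 and of Psmd1 in 9. Of the 34 genes, 3 were called without the wild type array at 2 h, 2 without that at 4 or 12 h and 1 without that at 6 h. Without the Cd14-deficient array at 4, 6 or 12 h 1 was called, and without that at 24 h 8 were. Without time as a block in the fit limma called 0, with 3 at an unadjusted p under 0.05.

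The differences varied over time but no variation was called. Their median was 0.04 without LPS and 0.03, 0.14, 0.16, 0.07 and 0.03 after 2, 4, 6, 12 and 24 h. Of the 34 genes 9 lay above wild type at all 5 LPS times and 2 below, against 20.9% and 14.7% of all genes. A test of whether the Cd14 difference changed between early and late times called 0 of the 34 and 0.0433% of all genes, with 3 of the 34 and 937 of all genes at an unadjusted p under 0.05. Psmc4 came nearest with -0.48 ± 0.11 (adjusted p = 0.10). A test of whether the response to LPS differed between Cd14-deficient and wild type cells called 0 of the 34 and 0.156% of all genes, with 1 and 602 at an unadjusted p under 0.05.

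Of the 3 catalytic immunoproteasome subunits 2 were lower in the same comparison. Psmb10 differed by -0.52 ± 0.06 (adjusted p = 7.7e-05) and Psmb9 by -0.45 ± 0.09 (adjusted p = 0.0025), below wild type at 5 of 5 LPS times. Psmb8 differed by -0.08 ± 0.05 (adjusted p = 0.23). The constitutive counterparts Psmb7, Psmb6 and Psmb5 differed by 0.20 ± 0.13, 0.03 ± 0.06 and 0.10 ± 0.05 (adjusted p = 0.28, 0.74 and 0.12).

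Markers of other cell types and states moved with the genotype. Of 9 genes of dividing cells 6 were higher in Cd14-deficient cells and 0 lower, with a summed intensity of 4991 to 14323 over their LPS arrays against 4255 to 10148 in wild type. Of 10 macrophage markers 0 were higher and 7 lower (20904 to 32562 against 30002 to 36139), and of 12 granulocyte markers 5 were higher and 2 lower (22798 to 36794 against 16015 to 35780). Of 8 dendritic cell markers 5 were higher and 0 lower. Among all genes 17.1% were higher and 12.6% lower. For dendritic cells the split was 3 and 0 after centring each array and 2 and 0 as deposited. As deposited it was 6 and 0 for dividing cells, 0 and 8 for macrophages and 4 and 2 for granulocytes. Of 3 tested mast cell and basophil markers and 2 plasmacytoid dendritic cell markers 0 were higher and 2 lower each, and the 1 tested marker each of B cells and erythroid cells was not called. All 6 T and NK cell markers and all 4 melanoma markers lay below the gene median on all arrays. So did 4 of 5 B cell and 3 of 4 erythroid markers. The part of these shifts in the proteasome differences was not tested.

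With EGTA, 1 of the 34 genes was higher than in wild type cells under LPS and 1 lower, against 7.4% and 6.22% of all genes. The median was -0.01 against 0.01 for all genes. With the values as deposited 0 were higher and 1 lower, and after centring each array 0 were higher and 2 lower. Psmd8 (Entrez gene 57296), a lid subunit, was lower by 0.37 ± 0.08 (adjusted p = 0.0093) and was lower under all 3 scalings.

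Psmd8 read 12.27 without LPS and 12.15, 12.07, 12.08, 12.08 and 11.89 in wild type cells. With EGTA it read 11.97, then 12.02, 11.69, 11.56, 11.35 and 11.78. In Cd14-deficient cells it read 12.20, then 12.09, 11.96, 12.07, 11.93 and 11.88. The EGTA arrays were lower than wild type at 5 of 5 LPS times and without LPS, with gaps from 0.11 at 24 h to 0.72 at 12 h. When times are pooled, the EGTA array at 2 h overlapped the wild type range. The call was lost without the arrays of 6 h or of 12 h, with an adjusted p up to 0.060.

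Psmc4 was higher with EGTA by 0.29 ± 0.08 (adjusted p = 0.036) on the probe set read for it. Its wild type levels were 11.02 without LPS and 11.06, 10.95, 10.75, 11.12 and 10.76. The EGTA levels were 11.41, then 11.35, 11.27, 11.34, 11.26 and 10.88, and the Cd14-deficient levels 11.39, then 11.33, 11.39, 11.25, 11.07 and 10.66. EGTA lay above wild type at 5 of 5 LPS times and also without LPS. On the other probe set the difference was -0.09 ± 0.06 (adjusted p = 0.33), so the direction was not shared. The call of Psmc4 was lost in 12 of 20 fits that left out an array or a time. Only Psmd8 stayed called without the wild type array at 2, 4 or 6 h or without any 1 of the 5 EGTA arrays under LPS.

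Of the markers of other cells, 3 of 10 for macrophages were higher with EGTA and 0 lower, and 2 of 3 for mast cells and basophils were lower and 0 higher. Of 8 dendritic cell markers 1 was higher and of 12 granulocyte markers 1, and Blnk, the only B cell marker tested, was lower. As deposited the macrophage count fell to 1 higher, and the other counts named here were the same. The 9 genes of dividing cells summed to 4143 to 10481 against 4255 to 10148 in wild type cells under LPS. The summed macrophage markers were 30681 to 37054 against 30002 to 36139. Their part in the EGTA differences was not tested.

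Psmb6 came next, with -0.17 ± 0.06 (adjusted p = 0.063), and lay below wild type at 5 of 5 LPS times. Of the 34 genes 3 lay above wild type at all 5 LPS times and 8 below, against 15.3% and 13.1% of all genes. The EGTA difference did not change between early and late times for any gene at an adjusted p under 0.05: limma called 0 of the 34 and 0% of all genes, with 3 and 819 at an unadjusted p under 0.05. The response to LPS with EGTA differed from that of wild type cells for 0 of the 34 and 1.66% of all genes, with 2 and 1056 at an unadjusted p under 0.05. Without the EGTA arrays at 12 and 24 h, which had the lowest RNA integrity numbers, Psmd8 was the only one of the 34 genes called between EGTA and wild type cells.

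**Figure D5:**
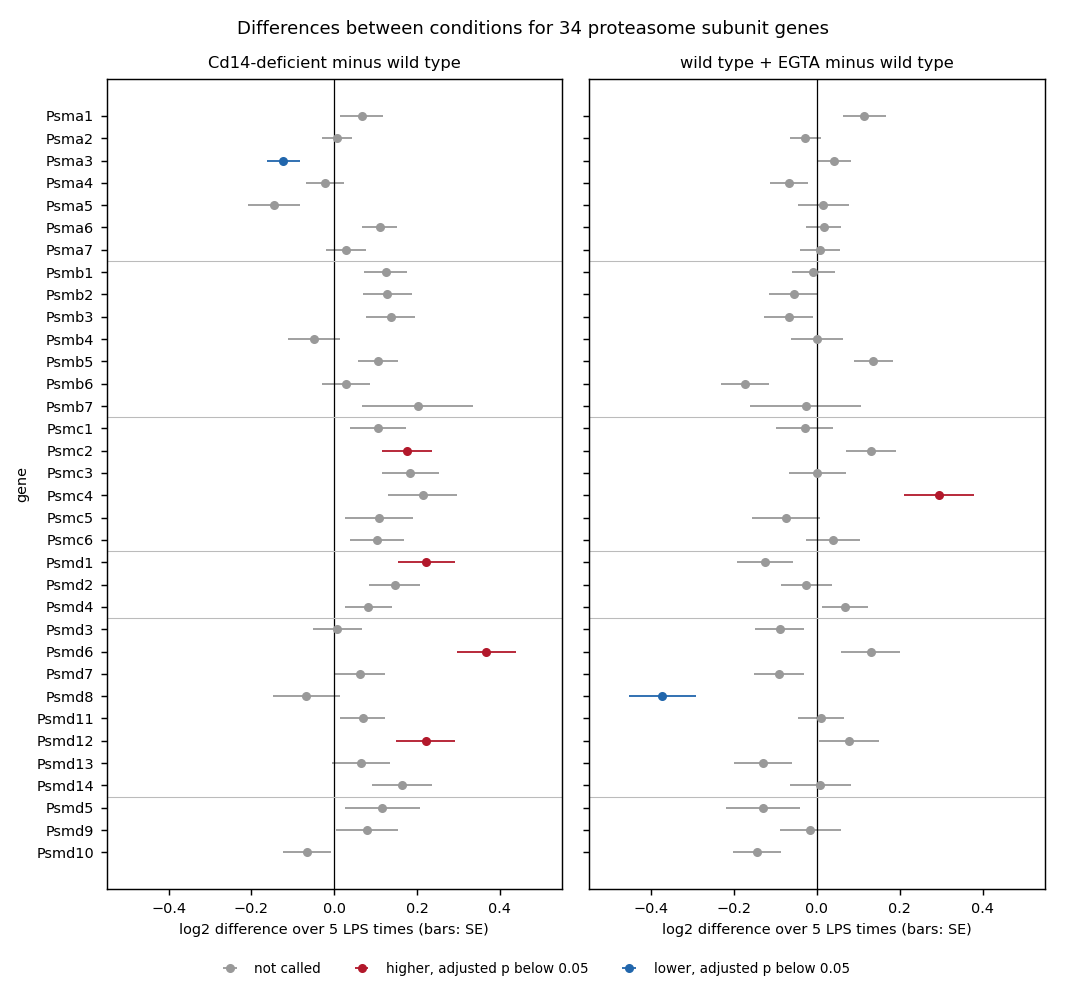
Difference of each of the 34 genes from wild type cells over the 5 LPS times (log2, points, with the SE as bars), in Cd14-deficient cells (left) and with EGTA (right). Coloured points have an adjusted p below 0.05. On the left 4 genes are higher and Psma3 is lower, and on the right Psmc4 is higher and Psmd8 lower, all within 0.4 of 0.

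Set against each other, Cd14-deficient cells had 8 of the 34 genes higher than the EGTA cells and 1 lower, against 16.8% and 14.4% of all genes. This comparison shares its arrays with the other 2. The median was 0.12 against 0.03 for all genes. Psmd1 was higher by 0.35 ± 0.07 (adjusted p = 0.0023), Psmd8 by 0.31 ± 0.08 (adjusted p = 0.012), Psmd6 by 0.24 ± 0.07 (adjusted p = 0.023) and Psmb3 and Psmb6 by 0.20 ± 0.06 (adjusted p = 0.019 and 0.018). Psma3 was lower by 0.16 ± 0.04 (adjusted p = 0.0084). The other probe set of Psmd6 was lower, by 0.22 ± 0.07 (adjusted p = 0.033). With the values as deposited 0 genes were higher and 4 lower, and after centring each array 1 was higher and 2 lower. Of the 34 genes 5 were called without the EGTA array at 4 or 12 h or the Cd14-deficient array at 4 h, and 3 without the array of either condition at 6 h. Without all arrays of 1 time the count was 2 for 6 h, 4 for 4 or 12 h and 14 for 24 h. The signs of Psmb3, Psmb2, Psmd2 and Psmd13, called higher here, turned with the values as deposited, to -0.0029 for Psmb3. Between these conditions 0 of 10 macrophage markers were higher and 7 lower in Cd14-deficient cells, 6 of 9 genes of dividing cells were higher and 0 lower, and 7 of 12 granulocyte markers were higher and 2 lower. Their part in the result was not tested.

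Genes that work with the proteasome were read from lists of related genes. Of all genes 26.4% were higher and 25.7% lower at 24 h, and 17.1% were higher and 12.6% lower in Cd14-deficient cells. Among the immunoproteasome subunits and activators, 5 of 7 were higher at 24 h of LPS and 0 lower, and 3 were lower in Cd14-deficient cells and 0 higher. As deposited 4 were higher at 24 h and 5 lower in Cd14-deficient cells. Psme1, which encodes a subunit of the PA28 activator, was higher at 24 h by 0.61 and lower in Cd14-deficient cells by 0.23 (adjusted p = 1.4e-06 and 0.0024). Of 5 dedicated assembly chaperones of the core, 3 were higher at 24 h and 1 lower, or 1 and 2 as deposited. Pomp, the chaperone that matures the core, was higher at 24 h by 0.60 (adjusted p = 5.1e-07) and lower in Cd14-deficient cells by 0.20 (adjusted p = 0.0033), while Psmg1 was lower at 24 h by 0.46 (adjusted p = 0.0012).

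Of 12 proteins that bind the proteasome or carry substrates to it, 2 were higher at 24 h and 3 lower, and 4 were higher in Cd14-deficient cells and 0 lower. The values as deposited turned these to 0 higher and 6 lower at 24 h and 0 higher and 2 lower in Cd14-deficient cells. Uchl5, a deubiquitinase bound to the base, was lower at 24 h by 0.52 (adjusted p = 0.00045), and Usp14, another, was higher in Cd14-deficient cells by 0.50 (adjusted p = 0.0037), or 0.37 as deposited (adjusted p = 0.063). Of 9 genes for factors that act in the transcription of proteasome genes, 2 were higher at 24 h and 1 lower, or 0 and 2 as deposited. Nfe2l1, whose product raises proteasome genes when the proteasome is impaired, was higher by 0.62 (adjusted p = 0.0014). As deposited it differed by 0.27 and was not called (adjusted p = 0.24). Of 8 genes for the segregase p97 and its cofactors, 5 were higher at 24 h and 1 lower, with a median of 0.24. As deposited 0 were higher and 1 lower, with a median of -0.06.

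During LPS, markers of other cells moved as well. At 24 h, 9 of 9 genes of dividing cells and 11 of 12 granulocyte markers were lower than without LPS, and 2 of 10 macrophage markers were higher and 6 lower. Of 8 dendritic cell markers 1 was higher and 3 lower, and of 3 mast cell and basophil markers 0 and 1. Both tested genes of the plasmacytoid dendritic cell list were higher, Bst2 by 2.82 and Tcf4 by 0.60 (adjusted p = 3e-12 and 0.003). Siglech, also on that list, had no probe set annotated to it alone. Whether the number of such cells changed was not tested. The only B cell marker tested, Blnk, was higher by 1.62 (adjusted p = 6.9e-08), and the only erythroid marker tested, Car2, by 1.58 (adjusted p = 6.4e-05). The other 4 B cell and 3 erythroid markers on the arrays lay below the gene median on all of them. The summed intensity of the dividing cell genes was 12075, 12028 and 18220 on the unstimulated arrays of wild type, EGTA and Cd14-deficient cells and 4143 to 14323 on the LPS arrays. Their part in the proteasome changes was not tested.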

How the data were processed

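The 18 arrays held 22690 probe sets each. The authors' values came from MAS5, per the submitters' processing notes, and neither its version nor its target intensity is given in the sources used here. Each deposited value is a probe set's intensity on a linear scale, and log2 values were computed here from these deposited intensities. Trimmed means differed between arrays, so arrays were quantile-normalised before taking log2(value + 16). Of the probe sets, 20393 were annotated to 1 gene, 691 to several and 1606 to none; only the first were named. Genes above the array median on at least 2 fitted arrays were tested, 6929 for the 15 LPS arrays and 7056 when the unstimulated arrays were included.

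Tests used limma 3.58.1 in R 4.3.3 (lmFit, eBayes with an intensity trend, Benjamini-Hochberg at 0.05), tested on simulated data. Conditions were compared over the LPS arrays with time as a block, and times over all arrays with condition as a block. The number of arrays limits the precision. Values on every array are given for Psmb5, Psmb6, Psmb7 and the 3 genes with the smallest p in each of 4 comparisons (Cd14-deficient and EGTA against wild type, 24 h, and late against early), and at most the 8 largest called genes are named each way in a comparison; values for Psma5, Psmd13 and the second probe sets were added after they were seen. The genes and the lists of related and marker genes were chosen with earlier results of these data known. A list of ubiquitin genes was not analysed here. Promoters are those of RefSeq's GRCm38.p6 table, the first by coordinate where a gene had 2, and only genes with an entry were used. Alternatives were the scaling, the pseudocount (1 or 64), the filter, the probe set rule, the trend, the blocks and leaving out arrays or times. The reading of every other probe set was chosen after seeing the data.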

Additional observations from a re-analysis of the deposited data

Results flagged for a closer look

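For each of the 34 genes, the difference from wild type cells at the 5 LPS times was examined for a time that lies apart from the other 4, in Cd14-deficient cells and with EGTA. Of the 68 sets of 5 values, 6 held such a time, where the gap to the nearest other value was over 0.71 of the whole range. Chance flags about 1 in 20 sets.

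The widest gap belonged to Psmb7, the trypsin-like catalytic subunit. Its difference between Cd14-deficient and wild type cells was -0.35 at 2 h and 0.25 to 0.48 at the other times. Psmc2 differed by -0.0296 at 24 h and by 0.19 to 0.27 at the other times in the same comparison. Psma2 differed by -0.0712 at 4 h against 0.02 to 0.03 at the other times, and Psmd3 by 0.16 at 6 h against -0.06 to -0.01. With EGTA, Psma3 differed from wild type by -0.0651 at 2 h against 0.05 to 0.09 at the other times. Psma4 differed by 0.0745 at 24 h against -0.12 to -0.08. Each of these values is 1 array minus 1 array, with no replicate at that time.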

How the results depend on the processing

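Counts of called proteasome genes are out of 34. Leaving out 1 array or 1 time gave 1 to 8 for Cd14-deficient against wild type cells, 0 to 3 for EGTA against wild type, 2 to 14 for Cd14-deficient against EGTA, 17 to 22 for LPS over all times and 20 to 22 for late against early. For the single times of 2, 4, 6, 12 and 24 h it gave 4 to 6, 12 to 15, 15 to 18, 16 to 24 and 19 to 22. The 14 of the third came without the 24 h arrays and the 2 without the 6 h arrays. On the deposited scale the counts were 3 for Cd14-deficient and 1 for EGTA against wild type, 4 between those conditions, 11 over all LPS times, and 2, 9, 11, 12 and 10 at the single times in order. With each array centred on its median they were 3 for Cd14-deficient against wild type, 3 for Cd14-deficient against EGTA, 16 at 2 h and 4 for the EGTA response against that of wild type. Without time as a block they were 0, 0 and 1 for the 3 comparisons of conditions in the order above, with 3, 1 and 4 at an unadjusted p under 0.05. Without the intensity trend they were 3 for Cd14-deficient and 1 for EGTA against wild type. With only the arrays compared, 3 were called for Cd14-deficient against wild type. For EGTA against wild type 1 was called without a filter, with the mean of probe sets, and without the EGTA arrays at 12 and 24 h. Other alternatives kept these counts within 1.5 times. Arrays were matched by LPS time through the time block, and no label numbers replicates. The cause of these moves was not tested.

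Signs turned as follows. As deposited, Cd14-deficient minus EGTA was -0.048 for Psmb2, -0.0029 for Psmb3, -0.053 for Psmd2 and -0.016 for Psmd13, the mean LPS change was -0.27 for Psmd9, and the 24 h change was -0.0087 for Psma4 and -0.051 for Psmd3. After centring each array on its median, the mean LPS change was 0.12 for Psma1, 0.13 for Psmb1, 0.28 for Psmd2 and 0.11 for Psmd8. In the same setting late minus early was -0.080 for Psma3, -0.15 for Psma4, -0.20 for Psma6, -0.18 for Psmb4 and -0.021 for Psmb6. With the mean of a gene's probe sets, Psmd7 changed by -0.11 over all LPS times and -0.16 at 24 h, and late minus early was -0.40 for Psma6 and 0.017 for Psmc4. For Psmd7 and Psma6 that mean takes in probe sets much dimmer than the one read. On other probe sets late minus early was -0.98 and -0.76 for Psma6 and -0.16 for Psmc6. These were dimmer than the ones read, with mean levels of 6.15 and 8.00 against 12.60 for Psma6 and 6.96 against 10.73 for Psmc6. On the remaining probe set of each gene, with a mean level of 12.39 for Psma6 and 9.13 for Psmc6, the sign did not turn. The other probe set of Psmc4 gave -0.089 for EGTA minus wild type, 0.16 for Cd14-deficient minus EGTA, 0.30 for the mean LPS change, 0.46 at 24 h and 0.26 for late minus early. That of Psmd6 gave -0.19 for Cd14-deficient minus wild type and -0.22 for Cd14-deficient minus EGTA. The cause was not tested. Not run, since they could not be fitted, were the EGTA test of late against early without the EGTA arrays at 12 and 24 h and both tests of the LPS response without that condition's unstimulated array.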

Other observations

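The chaperonin CCT, a ring complex that folds actin and tubulin and is not part of the proteasome, was read as a second large complex. In Cd14-deficient cells 7 of its 8 genes were higher than in wild type cells and 0 lower, against 17.1% and 12.6% of all genes, with a median of 0.34. The count was 6 after centring each array on its median and 1 with the values as deposited, with medians of 0.25 and 0.18 and 0 lower in both. Cct5 was higher by 0.43 (adjusted p = 0.00051 in limma), Tcp1 by 0.37 (adjusted p = 0.00088) and Cct7 by 0.36 (adjusted p = 0.00071), while Cct3 differed by 0.08 (adjusted p = 0.24). At 24 h of LPS 1 of the 8 was higher and 2 lower, against 26.4% and 25.7% of all genes. Cct3 was higher by 0.55 (adjusted p = 1.6e-05) and Cct5 lower by 0.51 (adjusted p = 0.00017), and both were called the same way with the values as deposited. Genes of dividing cells were higher in the Cd14-deficient cells too (6 of 9), and their part in the CCT difference was not tested.

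Vcp, which encodes the segregase p97, was higher in Cd14-deficient cells by 0.26 (adjusted p = 0.0011) and with EGTA by 0.17 (adjusted p = 0.029). As deposited these were 0.10 and 0.20 (adjusted p = 0.39 and 0.098). It was picked after its values were seen. Psma8, left out of the tests as dim, read 4.83 to 5.79 on the 12 wild type arrays, with and without EGTA, and 5.78 to 6.86 on the 6 Cd14-deficient arrays, below the gene median on all 18.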
